A study of Mus musculus with 4 samples.

Results

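Keratins are the intermediate filament proteins of epithelial cells, and 49 keratin genes were measured among the 30142 genes of these arrays. They were chosen by symbol (Krt followed by a number and at most 1 letter, without the keratin-associated proteins), from rows that name exactly 1 gene symbol. No keratin had more than 1 such row. Of the 49 genes, 28 encode type I and 21 type II keratins. RNA came from primary keratinocytes of C57BL/6J mice of 1 week of age, 4 wild-type mice and 4 mice with a keratinocyte-specific loss of Glut1, a glucose transporter encoded by Slc2a1. The medium of all cells contained 0.05 mM CaCl2, 5 ng/ml EGF, hydrocortisone, bovine pituitary extract, insulin, penicillin and streptomycin. After 3 days they were reseeded at 2000000 cells on collagen-coated plates, and they were harvested on the following day. Each sample combined 2 plates of a genotype, which gave 2 arrays per genotype, and the sources used here do not give the promoter that drove the deletion.

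A keratin filament is built from equal numbers of type I and type II chains, which pair with each other. Proliferating basal keratinocytes of the epidermis make Krt5 with Krt14, and differentiating suprabasal cells switch to Krt1 with Krt10. Krt6, Krt16 and Krt17 are known from wounds, cultured cells and other activated keratinocytes, Krt8, Krt18, Krt7 and Krt19 from simple epithelia, and a large set of keratins from the hair follicle. Low-calcium medium is commonly used to grow keratinocytes in an undifferentiated state.

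The arrays held 30604 rows with 1 gene symbol, with medians of 4.64 to 4.67 on the log2 scale. Pearson correlations over these rows were 0.998 within the wild type, 0.997 within the Glut1-deficient group and 0.989 to 0.992 across genotypes. Slc2a1, the deleted gene, fell by 1.28 (SE 0.10, limma adjusted p = 0.00754). All 13 measured non-keratin markers of keratinocytes (such as Trp63, Cdh1 and Itgb4) lay above background, with signals of 8.31 to 17.33. Log2 signals of different genes come from different probes, so they are compared between arrays and not between genes.

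In the Glut1-deficient keratinocytes, 3 simple epithelial keratins fell, Krt8, Krt18 and Krt7, with log2 fold changes of -2.25, -1.48 and -0.93. The other 46 keratins did not pass the test, and no keratin rose. Krt5, Krt14 and Krt17 were each lower on both Glut1-deficient arrays without passing. Krt16 was higher on both, also without passing. Most suprabasal and hair keratins lay at background in both genotypes.

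A gene passed where its limma p-value, adjusted by Benjamini and Hochberg over all 30604 rows, was under 0.05. Of all rows tested, 7.22% passed, 3.11% lower and 4.11% higher in the Glut1-deficient cells. The 3 keratins of 49 are near that background share, so the count alone says nothing particular of the family. At an unadjusted limma p under 0.05 there were 12 keratins, 8 lower and 4 higher, beside 22% of all rows, 10.4% lower and 11.6% higher, so this share too is near the background. The median keratin change was -0.10, beside -0.01 for all rows. For 31 of the 49 keratins the arrays of the genotypes did not overlap, which held for 49.7% of all rows. Among these, 26 keratins were lower and 5 higher in the Glut1-deficient cells, beside 25.8% and 23.8% of all rows. Hair keratins, which lay close to background, made up 11 of the 26 and 1 of the 5.

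A keratin counted as above background where both arrays of at least 1 genotype exceeded the floor of their array (4.36 to 4.87), which was set at the 95th percentile of the 23 rows for background controls. That held for 16 keratins. A further 23 were at or below the floor on all 4 arrays, and 10 exceeded it on some arrays only. Among all rows above background by the same rule, 14.1% passed, beside 3 of the 16 keratins. The median change of these 16 was -0.24, beside -0.01 for all rows above background.

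**Figure D1:**
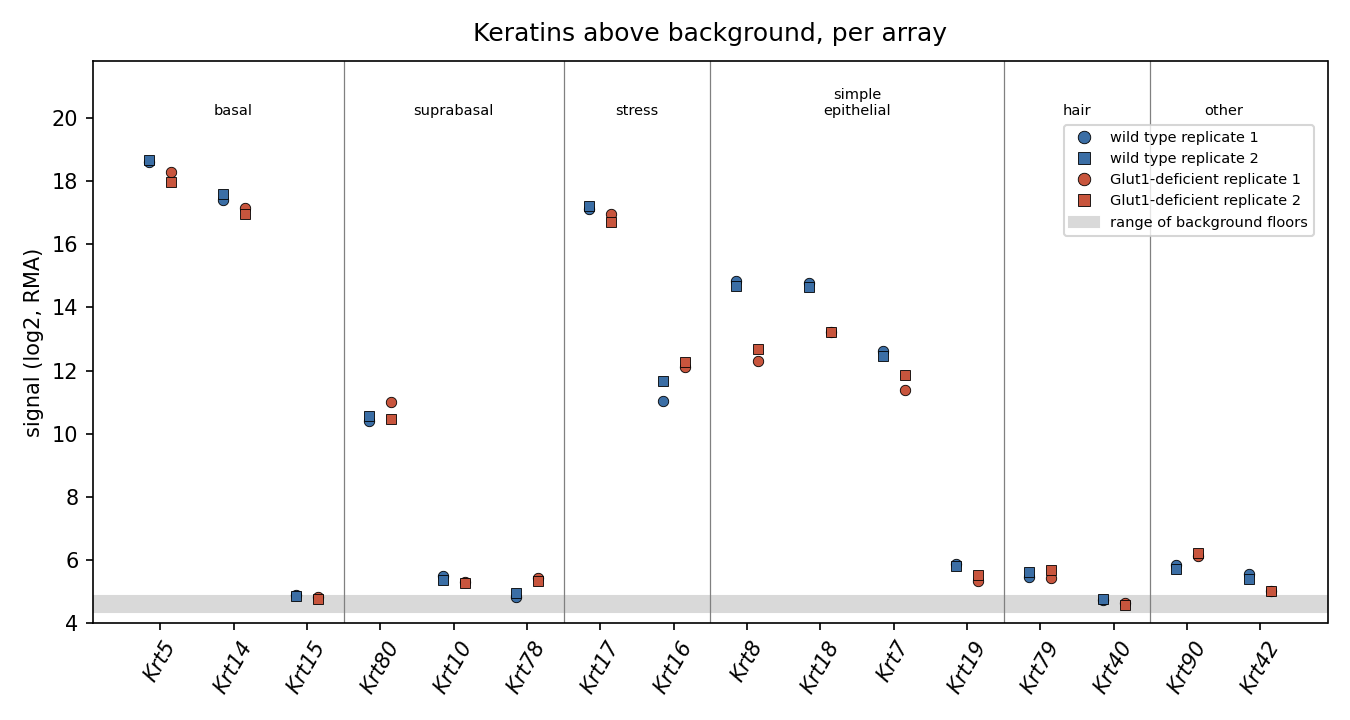
Log2 signal (y axis) of the 16 keratins above background on each array, by keratin group; blue marks are wild-type and red marks Glut1-deficient arrays, circles are replicate 1 and squares replicate 2, and the grey band is the range of the floors from 4.36 to 4.87. Krt8, Krt18 and Krt7 show the widest gaps between genotypes, while Krt80 and Krt79 overlap.

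**Figure D2:**
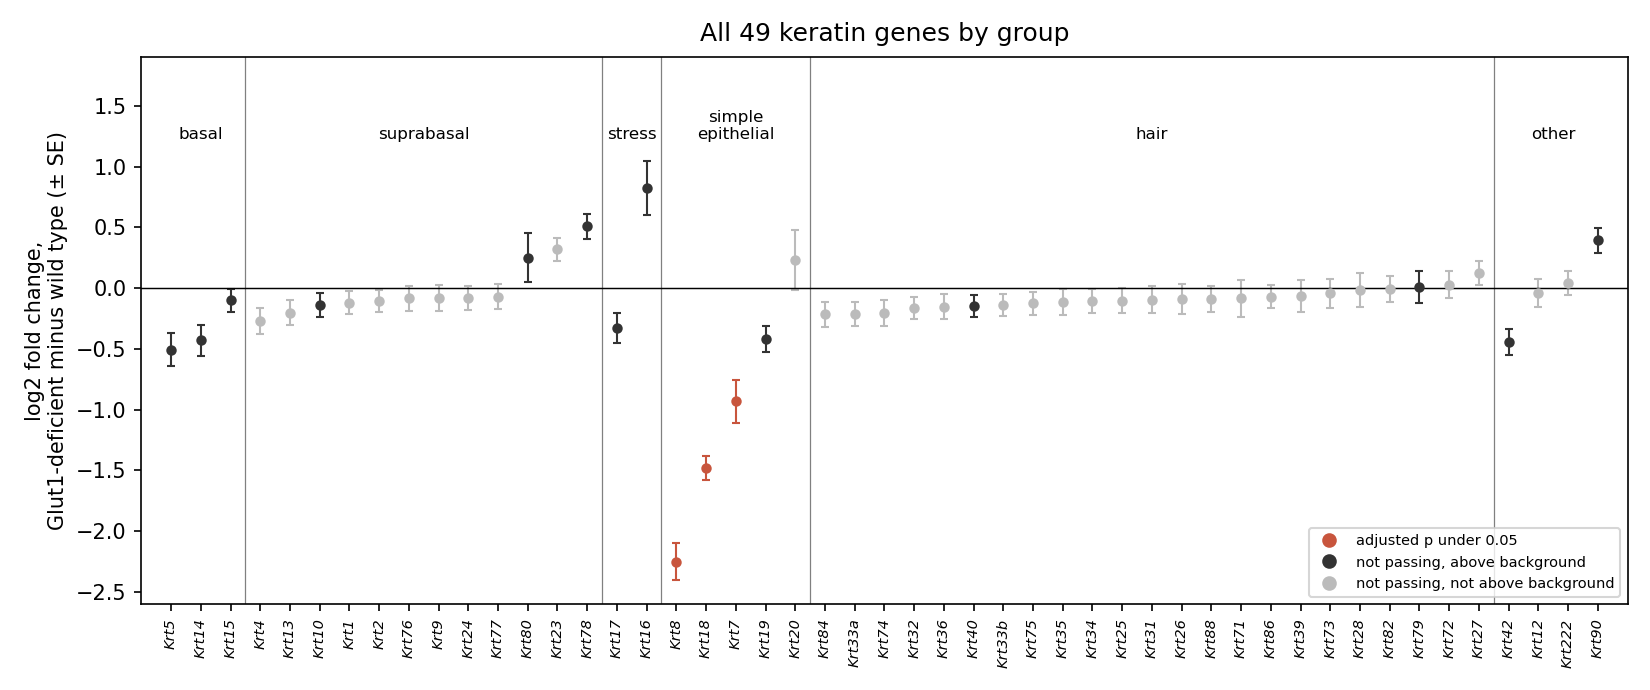
Log2 fold change, Glut1-deficient minus wild type, with its standard error for all 49 keratins, ordered within each group. The 3 red points, Krt8 at -2.25, Krt18 at -1.48 and Krt7 at -0.93, passed the test, and grey points mark keratins not above background.

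The promoters of the 3 keratins that fell are printed beside that of Krt5, which did not pass, so that the family members with and without a call can be read together. Each is the stretch of 250 bases that ends just before the RefSeq start of the gene (assembly GRCm38.p6), written 5′ to 3′ on the gene's strand. All 4 lie on chromosome 15: Krt8 at chr15:102004343-102004592 on the minus strand, Krt18 at chr15:102027966-102028215 on the plus strand, Krt7 at chr15:101412153-101412402 on the plus strand and Krt5 at chr15:101712906-101713155 on the minus strand. Capitals mark matches on either strand to any of 4 motifs. The GC box, bound by Sp1 and its relatives, was searched as GGGCGG. The motif of the AP-2 factors, which act on many epidermal genes, was searched as GCCNNNGGC. The motif of AP-1, the dimer of Jun and Fos proteins, was searched as TGANTCA. The last motif, similar to the TATA box that places the start of transcription, was searched as ATAAAA.
Krt8: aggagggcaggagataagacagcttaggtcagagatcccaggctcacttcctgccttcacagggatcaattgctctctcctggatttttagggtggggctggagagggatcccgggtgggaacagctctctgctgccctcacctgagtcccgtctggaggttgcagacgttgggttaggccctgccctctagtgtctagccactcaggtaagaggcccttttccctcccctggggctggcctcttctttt
Krt18: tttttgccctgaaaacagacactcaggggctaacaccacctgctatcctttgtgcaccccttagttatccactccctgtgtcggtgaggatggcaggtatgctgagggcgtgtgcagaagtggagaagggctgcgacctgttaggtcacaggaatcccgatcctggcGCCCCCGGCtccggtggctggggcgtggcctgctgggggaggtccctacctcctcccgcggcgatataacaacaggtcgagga
Krt7: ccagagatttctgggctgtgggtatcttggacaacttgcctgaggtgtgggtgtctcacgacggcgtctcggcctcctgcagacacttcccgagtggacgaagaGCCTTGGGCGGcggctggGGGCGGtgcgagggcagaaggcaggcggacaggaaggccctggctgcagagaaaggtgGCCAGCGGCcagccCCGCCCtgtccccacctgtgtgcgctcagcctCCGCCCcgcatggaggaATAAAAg
Krt5: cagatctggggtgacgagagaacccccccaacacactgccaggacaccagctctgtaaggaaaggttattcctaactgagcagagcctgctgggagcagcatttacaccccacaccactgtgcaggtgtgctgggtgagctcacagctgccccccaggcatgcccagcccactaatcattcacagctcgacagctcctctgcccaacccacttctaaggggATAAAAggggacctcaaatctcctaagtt
The Krt8 stretch held none of these motifs, and that of Krt18 held 1 AP-2 match, 83 to 75 bases before the start. The Krt7 stretch held 4 GC boxes, 2 AP-2 matches and 1 ATAAAA, the last 7 to 2 bases before the start. Its AP-2 match at 146 to 138 bases overlaps the GC box at 141 to 136 bases. The Krt5 stretch held 1 ATAAAA, 29 to 24 bases before the start. Among 32851 RefSeq promoter windows of the same length, 32.7% held the GC box, 13.7% the AP-2 motif, 6.75% the AP-1 motif and 17% ATAAAA. The G and C content was 58.0% for Krt8, 60.4% for Krt18, 66.0% for Krt7 and 56.0% for Krt5, beside a median of 52.4%. No motif was shared by the 3 keratins that fell. A match is a description of the letters and not a binding site. Such a window was at hand for 29 of the 49 keratins, and not for Krt14.

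Simple epithelial keratins were the only keratin group with members past the test, 3 of 5, although no test compared the groups. Of all rows 7.22% passed, 3.11% of them lower, and of those above background 14.1% passed. Krt8, a type II keratin, had signals of 14.83 and 14.66 on wild-type replicates 1 and 2 and of 12.31 and 12.67 on Glut1-deficient replicates 1 and 2. Both Glut1-deficient arrays were far below both wild-type arrays. Krt8 fell by 2.25 as a log2 fold change (SE 0.15, 95% confidence interval from -2.64 to -1.86, n = 2 per group, limma adjusted p = 0.00523), or 4.77-fold. Krt18, the type I partner of Krt8, gave 14.77 and 14.65 in wild-type cells and 13.22 and 13.24 in Glut1-deficient cells. The replicates lay close together within each genotype and the genotypes did not overlap. Krt18 fell by 1.48 (SE 0.10, interval from -1.73 to -1.24, limma adjusted p = 0.00521), or 2.80-fold. In bulk RNA such as this, fewer cells of a type and less RNA per cell cannot be told apart.

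Krt7, a type II keratin of glandular and ductal epithelia, had signals of 12.63 and 12.48 in wild-type and of 11.38 and 11.86 in Glut1-deficient cells. The Glut1-deficient replicates were wider apart than the wild-type ones, with replicate 1 the lower. Krt7 fell by 0.93 (SE 0.18, interval from -1.39 to -0.48, limma adjusted p = 0.0464), or 1.91-fold. Krt19, a type I keratin that lacks the usual tail domain, was faint, at 5.86 and 5.80 against 5.32 and 5.51, and its difference of -0.42 did not pass (limma adjusted p = 0.0929). Krt20, known from the intestine and from Merkel cells, exceeded the floor only on Glut1-deficient replicate 2 (4.96) and its genotypes overlapped.

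Krt8 and Krt18 passed in each of the 4 fits that left out 1 array, and they were lost only when every row of the table was tested (limma adjusted p = 0.0516 for each, in a range over 13 alternatives from 0.00306 for Krt8 and 0.00349 for Krt18 up to that value). Krt7 was lost in 6 of the 13 alternatives, with values of -0.85 and -1.01 when wild-type replicate 1 or 2 was left out and of -0.70 when Glut1-deficient replicate 1 was, and its limma adjusted p ran from 0.0281 to 0.170.

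The difference in Krt8 was larger than that in Krt18, its partner, by 0.77 on the log2 scale. The Krt8 minus Krt18 values of the genotypes did not overlap, but an exact two-sided permutation test gave p = 0.333, the smallest that 2 arrays against 2 allow (adjusted p = 0.417 over 5 pairs). The Krt7 difference stood 1.32 above that of Krt8 and 0.55 above that of Krt18, with the same exact permutation p of 0.333 for each.

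Krt8 and Krt18 are also expressed in Merkel cells, the touch receptor cells of the epidermis, so markers of that cell type were read beside them. Of 10 Merkel cell markers, 9 were at or below the floor on all 4 arrays, among them Atoh1, Sox2, Isl1, Chga and Syp. The mean log2 signal of the list was 3.97 and 3.92 in wild-type and 4.01 and 3.95 in Glut1-deficient cells. Piezo2, a mechanically gated ion channel, was above background, at 5.52 and 5.03 in wild-type and 4.61 and 4.65 in Glut1-deficient cells. Its difference of -0.64 did not pass (limma adjusted p = 0.108). Atoh1, at 4.14 to 4.52, and Isl1, at 3.91 to 4.05, followed as the brightest.

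Krt8 and Krt18 are adjacent in the RefSeq gene order of GRCm38.p6, with Krt79 and Krt78 beyond Krt8 and the protein-coding genes Eif4b and Tns2 beyond Krt18. These neighbours were looked up after the values of Krt8 and Krt18 were known. Eif4b, a translation initiation factor, had signals of 13.80 and 13.76 in wild-type and 14.65 and 14.45 in Glut1-deficient cells. It rose by 0.77 (SE 0.11, limma adjusted p = 0.0236), in the direction opposite to Krt8 and Krt18. Krt79 (0.01), Krt78 (0.51) and Tns2 (-0.04) did not pass. Of the neighbours of Krt7, Smim41, Krt80 and Krt88 did not pass either.

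The basal pair Krt5 and Krt14 had slightly lower signal in Glut1-deficient cells, and none of the 3 basal keratins passed the test, although 2 had an unadjusted limma p under 0.05. Krt5, the type II chain, had signals of 18.61 and 18.69 in wild-type and 18.30 and 17.98 in Glut1-deficient cells. The difference was -0.51 (SE 0.14, interval from -0.85 to -0.16, limma adjusted p = 0.0994). Krt14, the type I chain, gave 17.40 and 17.60 against 17.16 and 16.97. Its difference was -0.43 (SE 0.13, interval from -0.75 to -0.11, limma adjusted p = 0.122). Both genes were lower on each Glut1-deficient array than on each wild-type array. Krt5 minus Krt14 differed by -0.08 between the genotypes, which overlapped in it (exact permutation p = 0.667). Krt15, a type I basal keratin also known from hair follicle stem cells, lay near background at 4.89 and 4.87 against 4.81 and 4.75, a difference of -0.10 (SE 0.09, limma adjusted p = 0.645). The brightest row of any kind reached 19.72 on both wild-type arrays, 19.67 on Glut1-deficient replicate 1 and 19.35 on replicate 2. The part of this difference at the top of the scale in the basal values was not tested. With quantile normalization, which gives the arrays the same distribution, Krt5 (-0.61, limma adjusted p = 0.0354) and Krt14 (-0.70, limma adjusted p = 0.0403) passed. Over the 13 alternatives the limma adjusted p ran up to 0.316 for Krt5 and 0.428 for Krt14, and these were the only passes.

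Among the stress keratins, Krt16 and Krt17 had differences of opposite sign, and neither passed, although both had an unadjusted limma p under 0.05. Krt16 had signals of 11.05 and 11.68 in wild-type and 12.10 and 12.27 in Glut1-deficient cells. Wild-type replicate 1 was the lowest, and the genotypes did not overlap. The difference was 0.82 (SE 0.22, interval from 0.26 to 1.39, limma adjusted p = 0.101). Krt17 gave 17.12 and 17.21 against 16.97 and 16.71. Its difference was -0.33 (SE 0.12, interval from -0.64 to -0.01, limma adjusted p = 0.215). The Krt16 difference stood 1.15 above that of Krt17, with no overlap between genotypes (exact permutation p = 0.333, the smallest possible).

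Krt16 passed without wild-type replicate 2 (1.14, limma adjusted p = 0.0436) and had its lowest value, 0.51, without wild-type replicate 1. Its limma adjusted p over the 13 alternatives was 0.0414 to 0.275. Krt17 passed only with quantile normalization (-0.60, limma adjusted p = 0.0443, in a range up to 0.556). Krt6a and Krt6b, the type II partners of Krt16 and Krt17, share a row that names both genes, so neither could be read by itself and they are not among the 49. The shared row gave 18.12 and 18.25 in wild-type and 17.89 and 17.65 in Glut1-deficient cells. It was lower on both Glut1-deficient arrays, by -0.42 (SE 0.14), and did not pass in the limma fit over every row (adjusted p = 0.316).

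**Figure D3:**
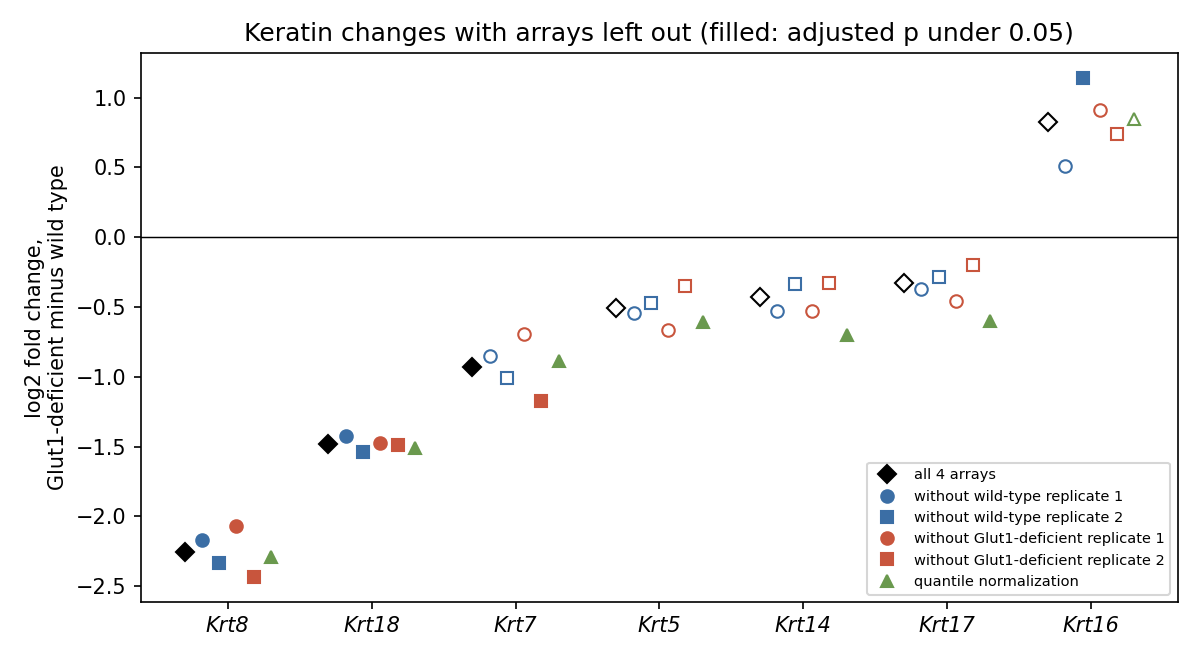
Log2 fold change, Glut1-deficient minus wild type, of 7 keratins with all 4 arrays, with each array left out and with quantile normalization; filled marks passed the test. Krt8 and Krt18 are filled under each of these settings, Krt7 is filled with all arrays, with quantile normalization and when Glut1-deficient replicate 2 is left out, and Krt16 is filled only without wild-type replicate 2.

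Of the 12 suprabasal keratins, 6 lay at or below the floor on all 4 arrays, and none passed the test. The 2 with an unadjusted limma p under 0.05, both higher, were Krt78 and Krt23, and Krt23 was 1 of those 6. Krt10, the main type I keratin of differentiating epidermis, was just above background, at 5.48 and 5.37 in wild-type and 5.31 and 5.26 in Glut1-deficient cells. The difference was -0.14 (SE 0.10, limma adjusted p = 0.516). Krt1, its partner, exceeded the floor only on wild-type replicate 1 (4.53) and was 4.45, 4.34 and 4.39 on the others. The main suprabasal pair was thus near background in both genotypes.

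Krt80, a type II keratin that is found broadly in epithelia, was the brightest of this group, at 10.40 and 10.56 against 11.01 and 10.45. Its genotypes overlapped, and the difference was 0.25 (SE 0.20, limma adjusted p = 0.591). Krt78 gave 4.81 and 4.94 in wild-type and 5.43 and 5.33 in Glut1-deficient cells. It was higher on both Glut1-deficient arrays by 0.51 (SE 0.10, limma adjusted p = 0.0550), just short of the threshold, and it passed where fewer rows were tested (limma adjusted p = 0.0362 for rows at or above the median signal and 0.0352 for rows above background, in a range up to 0.260). The other suprabasal keratins, Krt2, Krt4, Krt9, Krt13, Krt23, Krt24, Krt76 and Krt77, were each above the floor on at most 1 array.

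The 23 hair keratins were close to background, with signals from 3.46 to 5.68 and differences between -0.22 and 0.13. None passed, and none had an unadjusted limma p under 0.05. At or below the floor on all arrays were 16 of them, including Krt31, Krt32, Krt34, Krt35 and Krt36 of the hair shaft and Krt25, Krt28, Krt71 and Krt73 of the inner root sheath. Krt79, known from the upper hair follicle and the sebaceous duct, gave 5.46 and 5.62 in wild-type and 5.42 and 5.68 in Glut1-deficient cells. The genotypes overlapped (0.01, SE 0.13, limma adjusted p = 0.982). Krt40 was above the floor on both wild-type arrays, at 4.73 and 4.75, and not on the Glut1-deficient ones, at 4.62 and 4.57 (limma adjusted p = 0.462). Krt27 of the inner root sheath, at 4.59 to 4.81, was the other of the 3 brightest (0.13, SE 0.10, limma adjusted p = 0.581).

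Krt81, Krt83, Krt85 and Krt87 could not be read from a row of their own. A row that names Krt81, Krt83 and another transcript gave 4.39 and 4.54 against 4.29 and 4.29. None of 48 keratin-associated protein genes, which encode the matrix of the hair shaft, passed the limma test, and 35 of them were at or below the floor on all arrays (3 had an unadjusted limma p under 0.05). Hair follicle markers were read beside these keratins. Of 15 measured, 1 passed, beside 7.22% of all rows. This was the enzyme Padi3, described with the modifying enzymes, and 6 of the 15 markers were at the floor throughout. Their mean log2 signal was 5.26 to 5.38 in wild-type and 5.37 to 5.46 in Glut1-deficient cells. The brightest were Sox9, at 13.51 to 14.15, Msx2, at 6.61 to 7.59, and Cd34, at 5.31 to 8.58, and none of these passed.

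Outside those groups, Krt90 and Krt42 were above background. Krt90, a type II keratin, gave 5.85 and 5.71 in wild-type and 6.13 and 6.21 in Glut1-deficient cells, a difference of 0.39 (SE 0.10, limma adjusted p = 0.0946). Krt42, a type I keratin known from the nail, gave 5.56 and 5.38 against 5.03 and 5.02, a difference of -0.44 (SE 0.11, limma adjusted p = 0.0764). Neither gene's genotypes overlapped, and Krt42 passed where only rows above background were tested (limma adjusted p = 0.0490, in a range up to 0.341). Krt12, a keratin of the cornea, overlapped between genotypes at 4.42 to 4.64 (-0.04, SE 0.11, limma adjusted p = 0.915), and Krt222 was below the floor throughout.

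Genes that bind, modify or regulate keratins, or encode other intermediate filaments, were described in 5 lists with 85 measured genes. Of these, 16 passed, 10 higher and 6 lower, beside 7.22% of all rows and 14.1% of those above background. All 16 lay above background. Most members of each list did not pass, among them 25 of the 32 regulators. The 7 regulators that passed were all higher, and no test compared the lists. The count of 16 fell to between 3 and 8 when 1 array was left out, and only Padi3 of the 16 passed in all 4 of those fits.

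Linker proteins tie keratin filaments to desmosomes and hemidesmosomes, and all 11 measured ones were above background. Dsp, which anchors keratins at desmosomes, gave 16.52 and 16.63 in wild-type and 16.79 and 16.65 in Glut1-deficient cells, a difference of 0.15 that did not pass. Plec, which links keratins to hemidesmosomes, overlapped between genotypes (-0.02). Dst (0.63, limma adjusted p = 0.0602) and Ppl (0.63, limma adjusted p = 0.0815) were higher on both Glut1-deficient arrays without passing. The 1 member that passed was Krtcap2, known as a subunit of the complex that attaches sugar chains to proteins and not as a linker. Its signals were 11.80 and 11.75 in wild-type and 12.63 and 12.64 in Glut1-deficient cells. It rose by 0.87 (SE 0.09, limma adjusted p = 0.0133), and with 1 array left out it passed only when that was Glut1-deficient replicate 2 (otherwise limma adjusted p between 0.0671 and 0.0690, and 0.00920 to 0.0861 over all alternatives). The median change of the list was -0.02, beside -0.01 for all rows. Its 1 call among 11 stands beside 7.22% of all rows and 14.1% of those above background.

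Proteins that bundle keratins or form the cornified envelope, such as loricrin (Lor) and trichohyalin (Tchh), were mostly not above background: 7 of 9 were at the floor on all arrays. Filaggrin (Flg) was just above it, at 5.36 and 5.51 in wild-type and 5.43 and 5.36 in Glut1-deficient cells, and overlapped between genotypes. The 1 of 9 that passed, beside 7.22% of all rows and 14.1% of those above background, was Ivl, involucrin, an early envelope protein. It fell from 8.89 and 8.69 in wild-type to 7.15 and 7.70 in Glut1-deficient cells. The genotypes did not overlap, and the fall was 1.36 (SE 0.20, limma adjusted p = 0.0251). With 1 array left out it passed only without Glut1-deficient replicate 2, and its limma adjusted p was 0.0671 to 0.0954 when another array was left out (0.0155 to 0.115 over the 13 alternatives).

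Of 17 enzymes and chaperones that act on keratins, 3 fell and 1 rose. The share that passed was 7.22% of all rows and 14.1% of those above background. Padi3, which turns arginine of keratin-binding proteins into citrulline, had signals of 6.19 and 6.12 in wild-type and 4.70 and 4.53 in Glut1-deficient cells. Both Glut1-deficient arrays were below their floor, so the fall is given as a bound, at least 2.65-fold (limma adjusted p = 0.00523). Tgm1, the transglutaminase that cross-links envelope proteins and keratins, gave 7.64 and 8.16 against 6.46 and 6.31. It fell by 1.52 (SE 0.19, limma adjusted p = 0.0186) and did not pass without Glut1-deficient replicate 1 (limma adjusted p = 0.0890) or replicate 2 (0.0717). Over the 13 alternatives its limma adjusted p was 0.0116 to 0.0983.

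The kinase Akt1 gave 13.36 and 13.34 in wild-type and 12.78 and 12.68 in Glut1-deficient cells, a fall of 0.62 (SE 0.10, limma adjusted p = 0.0276). Trim29, a protein that interacts with Krt14, gave 12.69 and 12.87 against 13.36 and 13.52 and rose by 0.66 (SE 0.12, limma adjusted p = 0.0386). Both differences exceeded the spread of the arrays, but neither passed in any of the 4 fits that left out 1 array, and Trim29 was lost with quantile normalization as well (limma adjusted p = 0.0564). The median change of this list was -0.06.

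Of 32 genes known to regulate keratin genes, mostly transcription factors, 7 were higher and none lower, and the median change was 0.30. Above background were 28 of the 32, and of all rows above background 14.1% passed. At an unadjusted limma p under 0.05 there were 14 higher and 4 lower, beside 11.6% and 10.4% of all rows. Fosl1, an AP-1 subunit, gave 7.84 and 7.97 in wild-type and 8.78 and 9.37 in Glut1-deficient cells. It rose by 1.17 (SE 0.21, limma adjusted p = 0.0380). Grhl1, a factor of desmosome genes, gave 7.06 and 7.25 against 7.98 and 8.27 and rose by 0.97 (SE 0.14, limma adjusted p = 0.0239). Klf4, a factor of barrier formation, gave 8.69 and 8.55 against 9.67 and 9.39 and rose by 0.91 (SE 0.13, limma adjusted p = 0.0244). Tfap2a, which encodes AP-2 alpha, gave 10.33 and 10.36 against 11.17 and 10.98 and rose by 0.73 (SE 0.11, limma adjusted p = 0.0252). In each of these 4 genes both Glut1-deficient arrays were above both wild-type arrays.

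The other 3 regulators that passed were Jun (0.73), Cebpa (0.72) and Klf5 (0.70), which are named beyond the 4 largest changes. Trp63, the master regulator of basal keratinocytes, gave 8.42 and 8.31 in wild-type and 8.44 and 8.64 in Glut1-deficient cells, a difference of 0.18 that did not pass (limma adjusted p = 0.476). Hoxc13, a factor of hair keratin genes, gave 0.47 and did not pass. With 1 array left out, the limma fit called 0 regulators (either wild-type replicate removed), 1 (Glut1-deficient replicate 1 removed) or 3 (its replicate 2 removed).

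**Figure D4:**
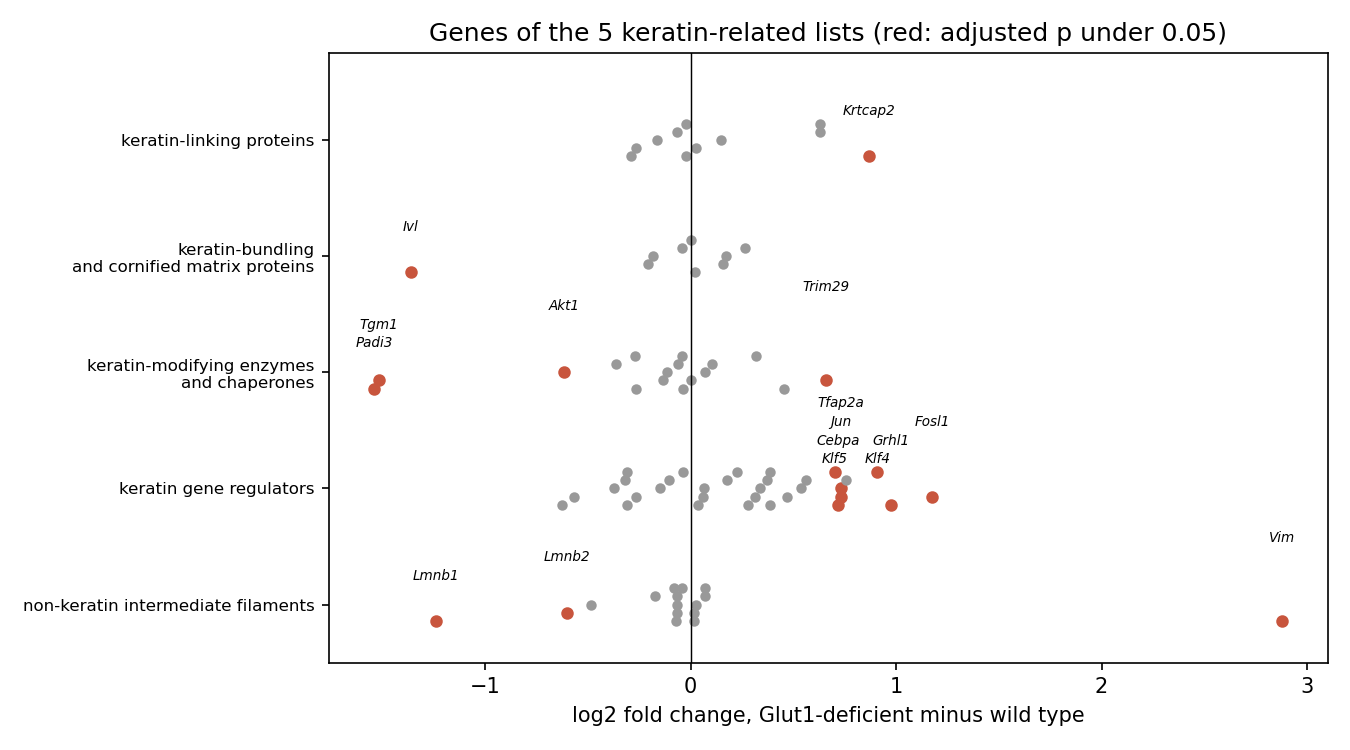
Log2 fold change, Glut1-deficient minus wild type (x axis), of each gene of the 5 keratin-related lists (y axis, with points stacked only to keep them apart); red points with names passed the test. The 7 red regulators all lie to the right of 0, and Vim, at 2.88, lies farthest to the right.

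Among 16 intermediate filament genes other than keratins, 1 rose and 2 fell, and 8 were at the floor on all arrays. Of all rows 7.22% passed, and of those above background 14.1%. Vim, vimentin, the intermediate filament of mesenchymal and many cultured cells, had signals of 8.38 and 8.04 in wild-type and 10.25 and 11.92 in Glut1-deficient cells. Both Glut1-deficient arrays were above both wild-type arrays, with replicate 2 the higher by far. Vim rose by 2.88 (SE 0.54, limma adjusted p = 0.0428). The nuclear lamins Lmnb1 and Lmnb2 fell. Lmnb1, at 10.45 and 10.64 against 9.37 and 9.25, fell by 1.24 (SE 0.12, limma adjusted p = 0.00979). Lmnb2, at 6.62 and 6.54 against 6.02 and 5.94, fell by 0.60 (SE 0.10, limma adjusted p = 0.0308). Vim was lost without either wild-type replicate (limma adjusted p = 0.107 and 0.125) and with median centring (0.0551), Lmnb1 without Glut1-deficient replicate 1 (0.0557) and Lmnb2 in all 4 fits that left out 1 array. Over all alternatives the limma adjusted p was 0.0206 to 0.159 for Vim, 0.00652 to 0.0730 for Lmnb1 and 0.0201 to 0.164 for Lmnb2.

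Markers of non-keratinocytes of the skin were read beside Vim. Of 11 fibroblast markers, 1 rose and 1 fell, beside 7.22% of all rows that passed and 14.1% of those above background. Of the 11 changes, 9 were positive and 2 negative. At an unadjusted limma p under 0.05 there were 4 higher and 1 lower, beside 11.6% and 10.4% of all rows. The mean log2 signal of this list was 4.68 to 4.74 in wild-type and 5.07 to 5.20 in Glut1-deficient cells. Dcn, a collagen-binding proteoglycan, was below the floor on both wild-type arrays and at 5.28 and 5.97 on the Glut1-deficient ones, at least 2.14-fold higher (limma adjusted p = 0.0250). Fbln1, the brightest, fell by 0.81 (limma adjusted p = 0.0293). Postn followed, at 5.62 to 7.34, and Col1a1, at 4.87 to 5.14, and neither passed. Col3a1 and Lum were below the floor throughout.

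The 10 melanocyte markers had a mean of 5.39 to 5.49 in wild-type and 5.86 to 6.42 in Glut1-deficient cells. All 10 changes were positive, and 1 passed, Pmel, a pigment granule protein that rose by 1.04 (limma adjusted p = 0.0341). At an unadjusted limma p under 0.05 there were 6 higher and 0 lower, beside 11.6% and 10.4% of all rows. The brightest, Tyrp1, gave 10.25 and 9.67 against 12.11 and 10.80, and Dct gave 7.06 and 6.53 against 9.22 and 8.04. Neither passed, and Glut1-deficient replicate 1 was the highest for both. Of 10 immune cell markers, Cd68 rose, by 1.95 (limma adjusted p = 0.0267), and the other 9 were at the floor. The mean over all 10, Cd68 included, was 4.08 to 4.15 against 4.25 to 4.29. Of these 10 changes, 2 were positive and 8 negative. Of 8 endothelial markers, Kdr rose, by 3.60 (limma adjusted p = 0.00508), and 6 were at the floor. The mean over all 8, Kdr included, was 4.15 to 4.26 against 4.54 to 4.71. Of these 8 changes, 4 were positive and 4 negative. Of 9 sebocyte markers, Dgat2 rose, by 1.15 (limma adjusted p = 0.0344), and the mean over all 9 was 7.55 to 7.60 against 7.70 to 7.80. Their brightest were Plin2, Scd1 and Fasn, at 13.13 to 15.62, and did not pass. The counts that passed in these lists stand beside 7.22% of all rows and 14.1% of those above background. The part of these markers in the Vim difference was not tested.

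Of the 13 non-keratin markers of keratinocytes, most of them adhesion genes, 2 rose and 3 fell, with a median change of -0.35, beside the 7.22% of all rows that passed and 14.1% of those above background. The desmosomal cadherins Dsg3 (14.88 and 15.03 against 15.93 and 15.82) and Dsc3 rose by 0.92 and 0.84 (limma adjusted p = 0.0157 and 0.0262). The hemidesmosome genes Col17a1, Lamb3 and Lama3 fell by 0.86, 0.80 and 0.59 (limma adjusted p = 0.0181, 0.0208 and 0.0307). No more than 1 of these 5 passed in any fit that left out 1 array.

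Of 18 differentiation genes other than keratins, 8 rose and 2 fell, with a median of 0.77. The share that passed was the same 7.22% of all rows and 14.1% of those above background. None of the 12 suprabasal keratins passed, but only 3 of them were above background, beside 15 of the 18 differentiation genes. The count of 10 was 3 without wild-type replicate 1, 6 without its replicate 2, 2 without Glut1-deficient replicate 1 and 4 without its replicate 2, and 1 with every row tested. Cdsn, corneodesmosin, the adhesive protein of the outer layers, gave 5.93 and 6.25 in wild-type and 9.29 and 9.40 in Glut1-deficient cells and rose by 3.25 (SE 0.14, limma adjusted p = 0.00219). Cnfn, an envelope protein, gave 7.02 and 7.62 against 9.94 and 11.09 and rose by 3.20 (SE 0.41, limma adjusted p = 0.0192). Sbsn, suprabasin, gave 7.13 and 7.94 against 9.22 and 9.24 and rose by 1.70 (SE 0.27, limma adjusted p = 0.0291). Cdsn passed under all 13 alternatives. With 1 array left out, Cnfn was lost without wild-type replicate 1 (limma adjusted p = 0.0623) and Sbsn without either Glut1-deficient replicate (0.134 and 0.102), and both were lost with every row tested (0.0991 and 0.125). The 2 that fell were Tgm1 and Ivl, described above, and Klf4 and Grhl1 are counted here as well as among the regulators. Whether the differentiation genes and the suprabasal keratins differ in their response was not tested.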

How the data were processed

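Total RNA of the 4 samples was labelled with biotin and hybridised to MTA-1_0 arrays, 1 per sample. The authors deposited log2 values, 1 per transcript cluster and array. The submitters' processing notes name Affymetrix Expression Console and RMA, and per the labels the signals are SST-RMA at gene level. The sources used here give no software version and no annotation release. RMA equalises arrays, so a change common to most genes could not be seen.

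Rows with 1 unique symbol (30604) were fitted with limma 3.58.1 (lmFit, eBayes) in R 4.3.3, two-sided, with Benjamini-Hochberg adjustment and no replicate block. Entrez identifiers of 22818 rows matched RefSeq genes of GRCm38.p6 and updated 827 symbols, which brought in Krt90. A fold against a group at or below the floor is a bound. The labels call the samples biological replicates, each from pooled plates, and p-values reflect the spread of these pools only, part of which may be technical. Precision is limited by the number of arrays.

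The members, lists and tests were chosen with earlier results of these data known. Keratins above the floor were named, with statistics for those that passed and the 3 brightest of each group. From other lists came members that passed (up to 4 by size) and the 3 brightest markers; other genes were named after their values were seen. The 5 pairs and the promoters were also picked then. Earlier searches of the 4 promoters for the TATA box, TATAAA, found 0 matches. Searches for the CCAAT box and for an Ets motif, ACCGGAAG, gave the same count. The motif ATAAAA was chosen after the sequences were seen. The procedure was tested on simulated data. Alternatives covered normalization, rows tested, variance moderation, replicate blocks, the mean of a gene's rows and each array left out.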

Additional observations from a re-analysis of the deposited data

How the results depend on the processing

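Under 13 alternatives, 12 of them planned and 1 (a crossed pairing) chosen after the data were seen, the number of keratins past the limma threshold, 3 as reported, was 6 with quantile normalization, 5 with only rows above background and 0 with every row tested (11 at an unadjusted p under 0.05). It was 2 to 3 with 1 array left out. All rows called numbered 2209 as reported, 74 with every row tested and 314 to 1214 with 1 array left out. The genes of the 5 related lists that passed numbered 16 as reported, 0 with every row tested (30 at an unadjusted limma p under 0.05) and 3 to 8 with 1 array left out. With every row, 72688 rows share the adjustment, 6918 of them controls. Standard errors in that fit were also larger (0.110 for Krt18, beside 0.0974 as reported), and the part of each in the counts was not tested. With 1 array left out, the fit has fewer samples. The sign reversed only for Krt79 (-0.016 with quantile normalization; from -0.12, without Glut1-deficient replicate 2, to 0.14 with 1 array left out, and -0.072 when wild-type replicate 1 was the one) and Krt80 (-0.031 to 0.53 with 1 array left out, negative without Glut1-deficient replicate 1), among the keratins above background and the related genes that passed. For the quantile and reversed values the cause was not tested.

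The replicate numbers do not pair the samples, since plates were combined at random, and deviations of same-numbered arrays correlated at -0.23. With the replicate number as a block, 4 keratins passed (Krt16 was added, limma adjusted p = 0.0414), 14 related genes and 1849 rows, and Akt1 (0.0520) and Lmnb2 (0.0542) were lost. The crossed pairing gave 3, 16 and 2039, without Trim29 (0.0648), Cebpa (0.0576), Fosl1 (0.0575) and Lmnb2 (0.0510). Other related genes entered this count of 16, with 3 linkers past the threshold, against 1 as reported, and still 7 regulators.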
